A study of Mus musculus with 6 samples.

Results

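The 8 long noncoding RNA genes Gas5, Snhg1, Snhg3, Snhg5, Snhg6, Snhg8, Snhg12 and Snhg15, all hosts of small nucleolar RNAs (snoRNAs), were examined in small RNA libraries of thymic regulatory T (Treg) cells. They were taken by name and found by Ensembl identifier, and all 8 were present among the 54547 genes of the count files. Treg cells were sorted from the thymi of mice aged 7 weeks, on the strain background labelled C5BL6/N. The controls were wild type (WT), and the other mice carried the genotype labelled miR-181a1/b1 -/-, written here as miR-181a/b-1-/-, and lacked the cluster of Mir181a-1 and Mir181b-1. There were 3 libraries per genotype, each labelled a biological replicate, and the study's methods state that thymi were pooled, so that the libraries do not measure the spread between single mice. The design asked which small RNAs differ between Treg cells with and without this cluster.

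A snoRNA host gene is transcribed and spliced, and the snoRNAs lie in its introns. After splicing, the excised intron is trimmed to the snoRNA, which is protected by its bound proteins, while the joined exons leave as a separate RNA that codes for no known protein in most of these genes. Most box C/D snoRNAs guide 2'-O-methylation and most box H/ACA snoRNAs guide pseudouridylation, mainly of ribosomal RNA. The class of a snoRNA alone does not give its function, and targets were not examined here. The spliced exons of Gas5 and several Snhg genes are known substrates of nonsense-mediated decay. Gas5 was named for its accumulation in growth-arrested cells, and its RNA level is known to depend on how actively a cell translates. A small RNA library holds short inserts, so a count on a host gene is a fragment of the long RNA and a count on a snoRNA gene can be the full-length product or a piece of it.

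The files held 168293 to 307840 gene counts per library, and 75.7 to 80.3% of all records were assigned to no gene. Genes annotated as snoRNAs took 42.7 to 46.8% of the gene counts. The deleted microRNA genes were no check of the labels, since Mir181a-1 had 1 count in WT replicate 2 and none elsewhere, and Mir181b-1 had none in any library. All 8 Treg markers had counts, and their summed level was 1116 to 1189 counts per 1000000 gene counts (CPM) in WT and 1040 to 1301 CPM in miR-181a/b-1-/- libraries. Ctla4, 1 of these 8, had 1 count in all 6 libraries together. The 5 recirculating T cell markers, Klf2 and S1pr1 among them, all had counts, summing to 800.4 to 851 CPM in WT and 666 to 992 CPM in miR-181a/b-1-/- libraries, and the 6 T cell markers summed to 851 to 1108 CPM and 679 to 921 CPM. Of 8 double-positive thymocyte markers 5 had counts, summing to 4.10 to 26.7 CPM in WT and 26.0 to 30.8 CPM in miR-181a/b-1-/- libraries, with Rag2 and Ptcra among those at 0 in all. Of 5 myeloid markers 3 had counts, summing to 4.45 to 31.5 CPM in WT and 9.75 to 41.0 CPM in miR-181a/b-1-/- libraries, most of them on Cst3, with Lyz2 and Csf1r at 0. Of 4 B cell markers 1 had counts, Cd79b, with 0 to 2 counts per library, and Cd79a and Ms4a1 were among those at 0. All 5 erythroid markers were at 0. The part of other cells in the values given here was not tested.

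The annotation (GENCODE release M21, GRCm38) placed 30 snoRNA genes inside the 8 hosts on the same strand, of which 10 lay in Gas5, 8 in Snhg1, 5 in Snhg12, 2 each in Snhg3 and Snhg5, and 1 each in Snhg6, Snhg8 and Snhg15. Snord80 in Gas5 and Snora16a in Snhg12 were each annotated by a pair of overlapping records. The letters TGATGA (box C) within the first 20 bases together with CTGA (box D) within the last 20 were found in 17 of the 30 genes (56.7%), against 20.1% of all 1559 annotated snoRNA genes. The letters ACA placed 3 bases before the 3' end, which mark the H/ACA class, were found in 8 of the 30 (26.7%), against 19.3% of all. One of the 8, Mir5117 in Gas5, also held box C and box D, which leaves 7 with ACA alone. Both motifs were searched on the strand of the gene, and a gene without them may hold other letters in these boxes. The sequences of 5 box C/D genes, each from a different host, are shown because the first was among the most counted genes of the libraries and the other 4 had no count at all. They are read from GENCODE transcripts of GRCm38, with box C and box D in capitals. Snord87 lies in Snhg6 at chr1:9942463-9942549 on the minus strand, Snord47 in Gas5 at chr1:161038082-161038158 on the plus strand, Gm22680 in Snhg1 at chr19:8725341-8725409 on the plus strand, Snord50a in Snhg5 at chr9:88521529-88521600 on the minus strand and Snord99 in Snhg12 at chr4:132310691-132310764 on the plus strand.
Snord87: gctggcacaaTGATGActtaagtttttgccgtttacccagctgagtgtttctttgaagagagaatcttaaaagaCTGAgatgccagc
Snord47: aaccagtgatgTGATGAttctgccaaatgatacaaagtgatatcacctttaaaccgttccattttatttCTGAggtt
Gm22680: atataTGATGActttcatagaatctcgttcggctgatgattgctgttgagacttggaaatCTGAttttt
Snord50a: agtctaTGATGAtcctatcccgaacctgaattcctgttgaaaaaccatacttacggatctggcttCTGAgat
Snord99: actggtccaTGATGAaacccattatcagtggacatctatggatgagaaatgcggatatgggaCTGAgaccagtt

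The second contrast lay within one host. Snhg3 holds a pair of H/ACA snoRNA genes of 205 bases each, Snora73a at chr4:132352775-132352979 and Snora73b at chr4:132352322-132352526, both on the minus strand. Aligned end to end they were identical at 198 of 205 positions (96.6%), and the longest stretch without a difference was 56 bases. The 7 positions that differ are in capitals.
Snora73a: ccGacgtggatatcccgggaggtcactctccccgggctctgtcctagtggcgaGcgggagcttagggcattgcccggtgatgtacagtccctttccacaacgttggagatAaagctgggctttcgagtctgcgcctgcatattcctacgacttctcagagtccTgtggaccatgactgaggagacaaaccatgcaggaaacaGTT
Snora73b: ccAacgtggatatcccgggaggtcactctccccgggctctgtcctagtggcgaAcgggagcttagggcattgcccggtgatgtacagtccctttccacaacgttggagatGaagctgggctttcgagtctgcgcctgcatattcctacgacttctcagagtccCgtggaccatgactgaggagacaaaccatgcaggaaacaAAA
The 2 snoRNA genes of Snhg5, Snord50a and Snord50b, were closer still, with 71 of 72 positions identical.

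In these libraries nearly all counts on the snoRNAs of the 8 hosts came from 2 genes. Snord87, in an intron of Snhg6, had 15998 counts over the 6 libraries and ranked 12th among the 1559 snoRNA genes and 17th among all genes. Snora73b, in an intron of Snhg3, had 2251 counts and ranked 47th among the snoRNA genes. Snora73a had 1 count, in WT replicate 2. The other 27 snoRNA genes had 0 counts in every library, among them all 10 of Gas5, all 8 of Snhg1 and all 5 of Snhg12.

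The 30 genes differed in how the annotation of their host ran over them. When the exons of all transcripts of a host were joined, every base of 27 snoRNA genes lay under a host exon, and these were the 27 genes without a count. Of Snora73a, 159 of 205 bases lay under an exon of Snhg3. Snord87 and Snora73b had no base under an exon of their host. In Gas5 20 of 25 annotated transcripts, in Snhg1 14 of 18 and in Snhg5 3 of 6 were of the retained-intron kind, and the joined exons filled 91.3%, 100% and 92.0% of these genes. In Snhg3 and Snhg6, with no such transcript, they filled 17.4% and 53.1%. Snhg12 and Snhg15 also had no such transcript, and there exons of other transcripts ran over all of their snoRNA genes. The map of the 8 loci shows this layout.

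**Figure D1:**
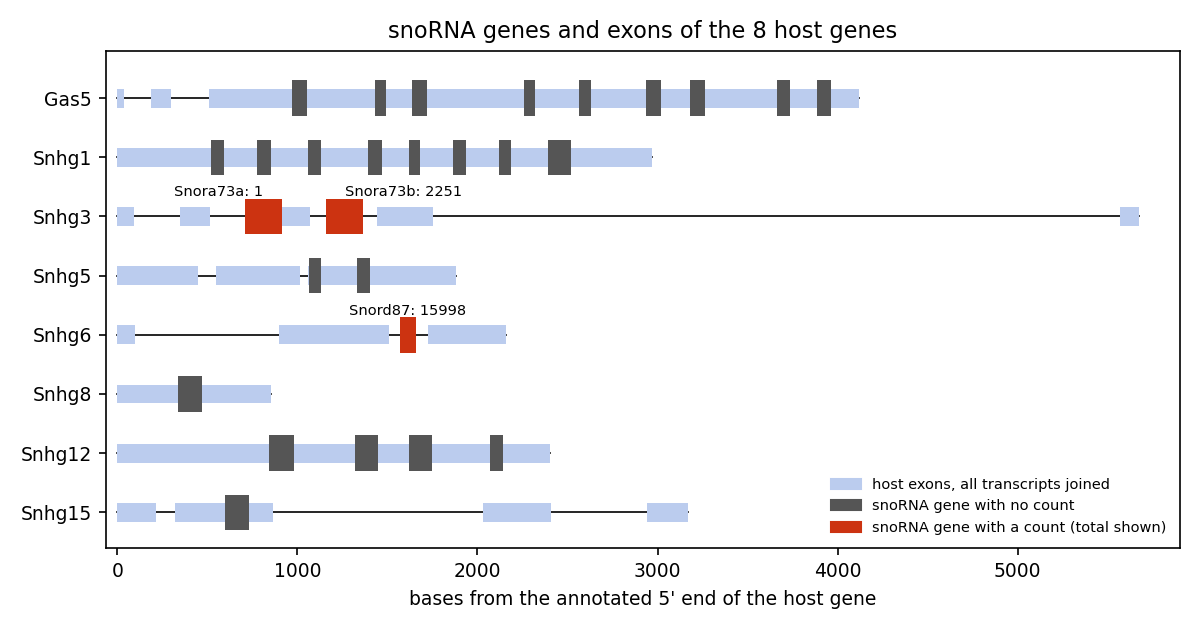
Exons (pale blue, all annotated transcripts joined) and snoRNA genes (upright boxes) of the 8 hosts, drawn to scale in bases from the annotated 5' end of each host gene. The 2 counted snoRNA genes that lie in gaps between exons are Snord87 with 15998 and Snora73b with 2251 counts, while the 27 wholly inside the joined exons (grey, overlapping records drawn over each other) had none.

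Counts of other snoRNA genes followed the same layout in these libraries. Of the 161 annotated snoRNA genes with every base under exons of another gene on the same strand, 0 had a count in any of the 6 libraries, against 188 of 1331 (14.1%) with no base so covered and 17 of 67 (25.4%) with some bases covered. With the 30 genes of the 8 hosts left out, and among snoRNA genes that lie inside another gene, 0 of 121 wholly covered genes had a count, against 139 of 490 (28.4%) with no base covered. Under exons on the opposite strand the counts were not all 0. Of 6 snoRNA genes inside a host and wholly under exons of the opposite strand only, 4 had counts, and 1 of these was Snora73b, which lies under exons of Gm17300. HTSeq, the counting program named by the study, by its usual rule sets a read aside as ambiguous when it falls on exons of more than 1 gene, and 20.4 to 24.0% of all records carried that mark. This was 0.931 to 1.07 times the number of gene counts. A larger share, 41.7 to 46.2% of records, was set aside as aligned to more than 1 place, a class that near-identical genes such as Snora73a and Snora73b or Snord50a and Snord50b can enter. The reads were not used here, so whether reads of the 27 snoRNAs or of Snora73a are among either kind of record was not tested. The zeros were therefore not read as absence of Snord47 or any other of the 27 snoRNAs. In the smaller basic set of the same annotation, which leaves out most partial transcripts, 4 of the 30 snoRNA genes were wholly covered.

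**Figure D2:**
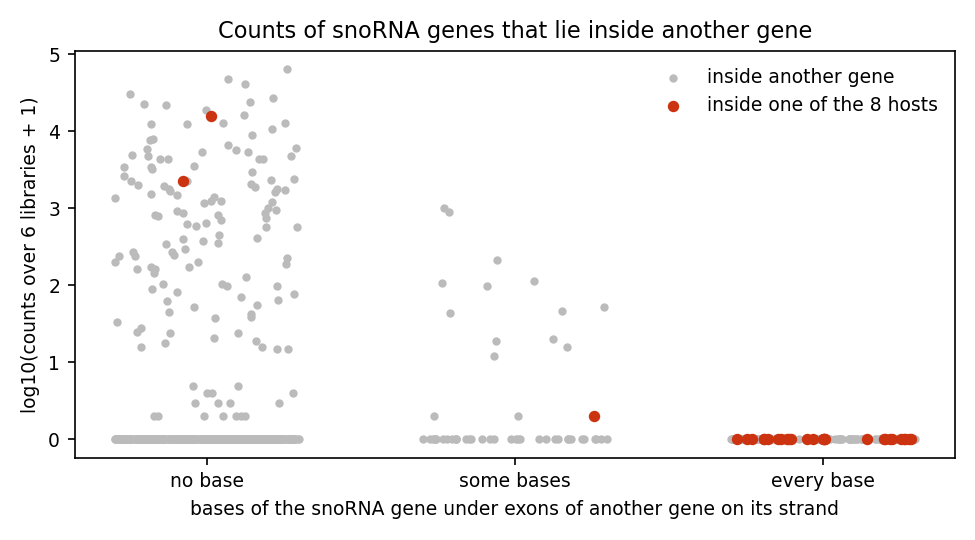
Counts summed over the 6 libraries, as log10(counts + 1), of each snoRNA gene that lies inside another gene (1 point per gene), in 3 columns by how many of its bases lie under exons of another gene on its strand. Points are spread sideways at random, red points are the 30 genes of the 8 hosts, and all 148 points of the right-hand column are at 0.

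Of the snoRNA genes of the 8 hosts, Snord87 and Snora73b could be compared between genotypes, and neither passed the test. Snord87 had 2607, 2530 and 2826 counts in WT and 1804, 2251 and 3980 in miR-181a/b-1-/- libraries. Scaled to the library, its level was 11536 ± 244 CPM (SD, n = 3) in WT and 11730 ± 1117 CPM in miR-181a/b-1-/- libraries. The groups overlapped, and the log2 fold change was 0.05 ± 0.21 (SE, 95% interval -0.39 to 0.49, adjusted p = 0.988, edgeR quasi-likelihood test). The 3 WT libraries lay about as close together as counting error alone would place them (224 CPM), whereas the miR-181a/b-1-/- libraries were further apart than their counting error of 234 CPM. Without miR-181a/b-1-/- replicate 3 the log2 fold change was -0.13. Snora73b had 274, 385 and 403 counts in WT and 250, 404 and 535 in miR-181a/b-1-/- libraries, that is 1534 ± 262 CPM and 1765 ± 294 CPM. Its log2 fold change was 0.22 ± 0.25 (SE, 95% interval -0.30 to 0.74, adjusted p = 0.980, edgeR), and the groups overlapped.

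The hosts of these 2 snoRNAs were hardly counted. Over the 6 libraries Snhg6 had 18 counts beside 15998 on its Snord87, and Snhg3 had 5 counts beside 2251 on Snora73b. Per kilobase of annotated sequence the snoRNA was 11707-fold above the exons in Snhg6 and 2165-fold in Snhg3. These ratios compare RNAs of different lengths within libraries made from short inserts. No host had at least 10 counts in 3 libraries both on itself and on its snoRNAs, so no ratio of host to snoRNA was compared between genotypes.

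The exons of Gas5 were the most counted among the 8 hosts. Gas5 (ENSMUSG00000053332.13, chr1:161034422-161038539, plus strand) had 20, 27 and 22 counts in WT and 15, 30 and 38 in miR-181a/b-1-/- libraries, and its 152 counts made up 44.9 to 65.5% of the counts on the 8 genes in each library. It ranked 9th of 9397 long noncoding RNA genes by counts and 25th by counts per kilobase of exon. Its level was 90.1, 120.2 and 90.3 CPM in WT and 89.1, 153.8 and 123.4 CPM in miR-181a/b-1-/- libraries. The lowest and the highest library were both miR-181a/b-1-/-, so the groups overlapped. The means were 100.2 ± 17.3 CPM (SD, n = 3) and 122.1 ± 32.4 CPM, and counting error alone would give SDs of 20.8 and 23.7 CPM. The log2 fold change was 0.32 ± 0.31 (SE, adjusted p = 0.980, edgeR) with a 95% interval of -0.33 to 0.97, so that levels from 0.798-fold to 1.96-fold of WT lie within it.

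Gas5 alone of the 8 hosts had at least 10 counts in at least 3 libraries and entered the test across genes. Among the 1391 genes tested, 0 were lower and 0 higher in miR-181a/b-1-/- libraries at an adjusted p under 0.05 with edgeR (0% in each direction), and DESeq2 also called 0. At an unadjusted p under 0.05 edgeR gave 72 genes (5.18%) and DESeq2 24 (1.73%), with Gas5 in neither. With no count filter, which let all 8 hosts in, their adjusted p-values by edgeR ran from 0.734 to 0.991, beside 8 calls among 16588 genes (0.0482%).

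Snhg8 was second by counts. Snhg8 (ENSMUSG00000104960.1, chr3:123507552-123508404, minus strand), host of the H/ACA gene Snora24, had 6, 4 and 8 counts in WT and 5, 3 and 6 in miR-181a/b-1-/- libraries. Its level was 25.9 ± 7.58 CPM (SD, n = 3) in WT and 21.5 ± 7.38 CPM in miR-181a/b-1-/- libraries, and the groups overlapped.

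Snhg12 was the 1 host whose groups did not overlap. Snhg12 (ENSMUSG00000086290.8, chr4:132308623-132311024, plus strand), host of Snord99 and of H/ACA snoRNAs, had 3, 2 and 1 counts in WT and 4, 4 and 5 in miR-181a/b-1-/- libraries. Its level was 13.5, 8.91 and 4.10 CPM in WT and 23.8, 20.5 and 16.2 CPM in miR-181a/b-1-/- libraries. A two-sided exact permutation test gave p = 0.1, the smallest that 3 against 3 libraries can give. Of the 8778 genes with at least 5 counts in all, 5.04% had every miR-181a/b-1-/- library above every WT library and 4.82% had the opposite, beside 1 and 0 of the 8 hosts. The ratio of pooled counts was 2.23, with a 95% interval of 0.790 to 7.15 from counting error only.

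Snhg6 (ENSMUSG00000098234.7, chr1:9941959-9944118, minus strand) had the largest value in the other direction, with 1, 7 and 5 counts in WT and 1, 1 and 3 in miR-181a/b-1-/- libraries. WT replicate 1 was as low as the miR-181a/b-1-/- libraries, and the groups overlapped. The pooled ratio was 0.396 (95% interval 0.110 to 1.18), which is -1.34 as a log2 ratio. Snord87 from the same gene had a log2 fold change of 0.05 by edgeR. That is another measure, with TMM scaling, and the difference between host and snoRNA was not tested.

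Snhg1, Snhg5, Snhg3 and Snhg15 were counted too thinly for a comparison of any but large differences. Snhg1 (ENSMUSG00000108414.1, chr19:8723475-8726443, plus strand), whose introns hold the C/D snoRNAs first described with the U22 gene (Snord22), had 2, 2 and 5 counts in WT and 4, 4 and 2 in miR-181a/b-1-/- libraries. Snhg5 (ENSMUSG00000097195.9, chr9:88521050-88522929, minus strand) had 2, 2 and 3 against 2, 3 and 2 counts. These 2 genes had counts in every library, and their groups overlapped. Snhg3 (ENSMUSG00000085241.7, chr4:132348014-132353686, minus strand) had 0, 1 and 2 counts in WT and 1, 0 and 1 in miR-181a/b-1-/- libraries. A count of 0 allows up to 13.5 CPM in WT replicate 1 and 15.4 CPM in miR-181a/b-1-/- replicate 2. Snhg3 shares 135 exon bases with Rcc1 on the same strand, and how reads there were assigned is not known. Snhg15 (ENSMUSG00000085156.7, chr11:6525591-6528760, minus strand), host of the H/ACA gene Snora9, had 0, 0 and 3 counts in WT and 0, 2 and 1 in miR-181a/b-1-/- libraries. The 3 libraries at 0 allow 13.4 to 17.8 CPM. The pooled ratios of these 4 hosts were 1.14 for Snhg1 (95% interval 0.417 to 3.18), 1.03 for Snhg5 (0.308 to 3.44), 0.686 for Snhg3 (0.0573 to 5.98) and 1.03 for Snhg15 (0.138 to 7.68).

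**Figure D3:**
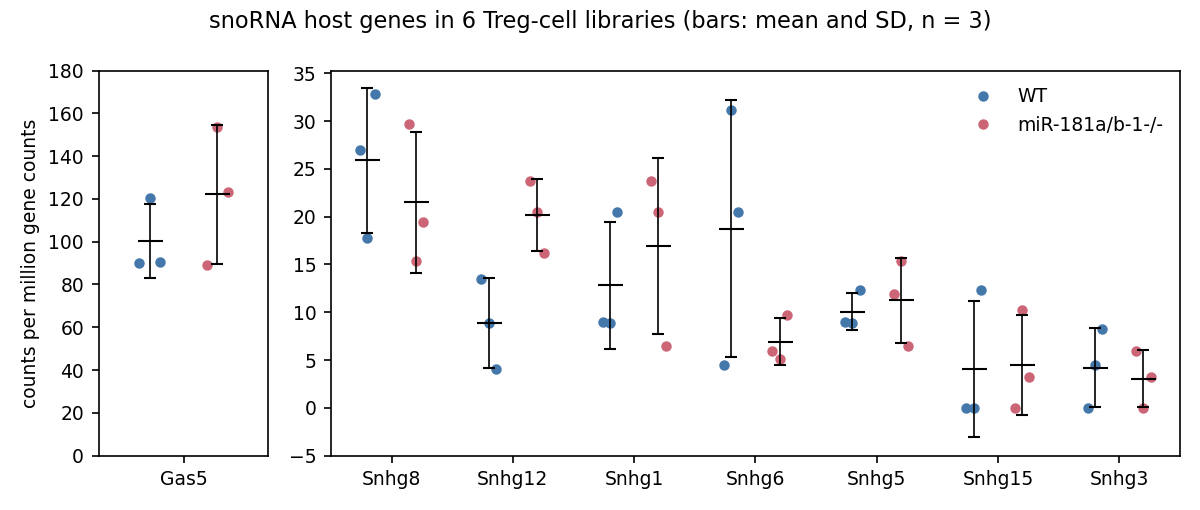
Level (CPM) of the 8 hosts in each library (points), with mean and SD (bars, n = 3) for WT (blue) and miR-181a/b-1-/- (red). Gas5 has a scale of its own, and Snhg12 is the 1 gene whose red points, from 16.2 to 23.8, all lie above its blue points, from 4.10 to 13.5.

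The pooled ratio was above 1 in 5 hosts and below 1 in 3, but Snhg5 with 7 and 7 and Snhg15 with 3 and 3 pooled counts were equal in the 2 genotypes before scaling to library size. With 1 library left out the log2 ratio changed sign in 4 hosts, running from -0.13 to 0.76 in Snhg1, -1.13 to 0.41 in Snhg3, -0.27 to 0.44 in Snhg5 and -1.05 to 0.46 in Snhg15. With all libraries the 95% counting interval of the ratio held 1 in all 8. The median log2 ratio of the hosts was 0.04, the same as over the 8778 genes with at least 5 counts, whose 5th and 95th percentiles were -1.54 and 1.50 (0.5 added to each pooled count). Any gene with equal pooled counts in the 2 genotypes takes this value from library size alone, as Snhg5 and Snhg15 did. The equal medians were therefore not read as a result about the hosts. Together the 8 hosts took 153.1, 200.4 and 201.1 CPM in WT and 190.1, 241.0 and 188.4 CPM in miR-181a/b-1-/- libraries. The means of 184.9 ± 27.5 and 206.5 ± 29.8 CPM (SD, n = 3) differed by less than 1 SD of either group. The difference of 21.6 CPM fell to 5.74 CPM when WT replicate 1 was left out and to 4.39 CPM when miR-181a/b-1-/- replicate 2 was, and with Gas5 left out of the sum it was -0.30 CPM.

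**Figure D4:**
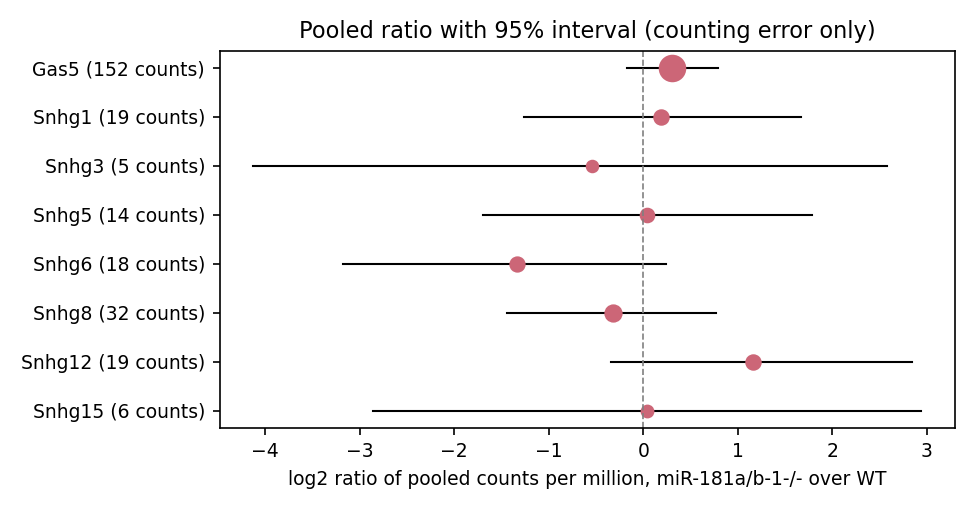
Log2 ratio of pooled CPM, miR-181a/b-1-/- over WT, for each host (points, larger with more counts), with exact 95% intervals that cover counting error only (lines). The intervals of all 8 hosts cross 0, and that of Gas5, with 152 counts, is the narrowest.

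Per kilobase of joined exon, which allows genes to be compared, Gas5 had a mean level over the 6 libraries of 29.6 CPM per kilobase (range 23.7 to 40.9) and Snhg8 of 27.8 (18.0 to 38.5). Snhg6 followed with 11.2, Snhg5 with 6.16, Snhg12 with 6.04, Snhg1 with 5.01, Snhg3 with 3.69 and Snhg15 with 3.17. The 6 values of each gene overlapped those of the next in this order throughout, and by the length of the longest transcript the order of the lower 5 changed, with Snhg1 last. Over exon bases not shared with another gene of the strand, a length chosen after seeing the data, Snhg12 (7.51) passed Snhg5 (6.72), Snhg1 stayed 6th (6.34) and Snhg15 last (3.51). Snhg8, with 853 exon bases against 3760 in Gas5, stood beside it on this scale.

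The place of the snoRNA genes in their introns varied. The distance was taken from the 3' end of the snoRNA to the 3' end of the smallest annotated host intron that spans it. Its median was 73 bases (51 to 314) in the 21 genes shorter than 100 bases and 81 bases (74 to 1595) in the 9 longer ones. An exon of another transcript can begin nearer, as in Snhg15. By this measure the far ones were Snora9 in Snhg15 at 1595 bases, the records of Snord80 at 313 and 314 and of Gm26224 at 278 in Gas5, and both records of Snora16a in Snhg12 at 237. A run of at least 5 pyrimidines led by C was sought, beginning within 10 bases of an annotated start. Such a run is known from the 5' terminal oligopyrimidine genes. It was found in 5 of the 7 hosts with a promoter in the RefSeq table (Gas5, Snhg3, Snhg5, Snhg8 and Snhg12). Among 27025 genes the share was 34.4%, and 4 of the 12 protein-coding snoRNA hosts in the table had it (33.3%). These protein-coding hosts were listed as genes that start with a pyrimidine tract, yet their share was no higher than that of all genes. The search therefore did not single out such starts, and the share in the 7 hosts was not read as an excess.

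Among 13 other noncoding snoRNA hosts, 11 were found, 8 had counts and 1 was tested. This was Dancr, host of an H/ACA snoRNA, with 98, 104 and 149 counts in WT and 70, 112 and 251 in miR-181a/b-1-/- libraries and a log2 fold change of 0.31 ± 0.29 (SE, adjusted p = 0.980, edgeR). Zfas1, the next, had 1, 7 and 2 against 10, 4 and 10 counts, and the groups overlapped. Of 16 protein-coding snoRNA hosts 13 were tested, with a median log2 fold change of 0.08, beside a median of -0.004 over all genes tested. The 2 most counted were Rpl7a (log2 fold change -0.33 ± 0.24, SE) and Rps3 (0.15 ± 0.27), both ribosomal proteins.

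Of 12 genes for proteins that bind or assemble snoRNAs, all had counts and 2 were tested, Nop58, a core protein of C/D particles (log2 fold change -0.01 ± 0.34, SE), and Dkc1, the pseudouridine synthase of H/ACA particles (0.18 ± 0.39). Of 10 nonsense-mediated decay factors 2 were tested, the kinase Smg1 (0.19 ± 0.32) and Upf2 (-0.24 ± 0.40). In each of these 4 lists 0 genes were called by edgeR in either direction, and 0 had an unadjusted p under 0.05. Among all 1391 genes tested the shares were 0% and 5.18%, so zeros in such short lists are no result about them.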

How the data were processed

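Small RNA of sorted Treg cells was sequenced with the SMARTer smRNA-Seq Kit. The authors trimmed adapters, removed ribosomal RNA with Bowtie2, aligned with STAR to GRCm38.p6 and counted with HTSeq. The annotation release, strand setting and overlap mode are not given in the sources used here. The deposited counts are raw read counts per Ensembl gene, 1 file per library. Records without a gene were left out of library sizes. A further deposited table of the authors' DESeq2 fold changes and p-values for microRNAs was not used.

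Symbols, exons and sequences came from GENCODE M21, promoters from RefSeq. Gene identifiers with version matched for 7 of the 8 hosts, and Snhg12 (version 8 in the counts, 9 in the annotation) matched without it. The coordinates and exons given for Snhg12 are those of version 9. Of all 54547 counted identifiers 53706 were in M21, and 51550 matched with version. Exon cover read from M21 may therefore differ from that in the release used for counting. Genes with at least 10 counts in at least 3 libraries were tested with edgeR 4.0.16 (TMM, quasi-likelihood, genotype only, Benjamini-Hochberg adjustment over all genes tested) in R 4.3.3. DESeq2 1.42.0, other normalizations, other filters and each library left out were alternatives. The edgeR script was tested on simulated data. CPM are counts per 1000000 gene counts. Intervals of pooled ratios are exact conditional binomial at 95%, a count of 0 allows 3 counts, and both cover counting error only, without molecular identifiers. The 8 hosts were all described, as were their tested snoRNA genes and the 2 most counted genes of each other list. The hosts and lists were chosen with earlier results of these data known.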

Additional observations from a re-analysis of the deposited data

How the results depend on the processing

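Depth limited the comparisons, since 7 of the 8 hosts had fewer than 10 counts in every library. For Gas5 the log2 fold change stayed positive in all 13 alternatives (0.18 to 0.52, adjusted p 0.697 to 0.999997), and no host and no snoRNA gene of a host was called in any. Of the tested Gas5, Snora73b and Snord87, Snord87 turned in direction, at -0.13 without miR-181a/b-1-/- replicate 3, in a range from -0.13 to 0.16 with 1 library left out. Over all genes, calls lower in miR-181a/b-1-/- libraries numbered 1 with no filter, 37 at an unadjusted p with edgeR and 11 with DESeq2 (the last chosen after seeing the data). Calls higher numbered 7, 35 and 13 in the same settings. With 1 library left out the calls ran from 0 to 1 lower and from 0 to 5 higher, with 1 lower and 3 higher without miR-181a/b-1-/- replicate 3 and 5 higher without replicate 1. The cause was not tested.

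The pooled log2 ratio of Snhg12 ran from 0.79 to 1.60 and that of Snhg6 from -1.78 to -0.79 with 1 library left out. Snhg15 had no ratio without WT replicate 3, its only counted WT library. The summed level of the hosts, 21.6 CPM higher in miR-181a/b-1-/- libraries, ran from 4.39 to 30.7 with 1 library left out and was -0.30 without Gas5. By longest transcript Gas5 came to 43.5, Snhg12 to 9.43, Snhg5 to 8.73, Snhg15 to 6.37, Snhg3 to 6.27 and Snhg1 to 5.45 CPM per kilobase, so that Snhg12 passed Snhg5 and Snhg1 fell from 6th to 8th. No source says that the replicate numbers pair samples. Deviations from the group mean correlated at 0.23, 0.08 and 0.18 in same-numbered libraries and at -0.23 to 0.06 in others. Every library thus correlated best with its own number, a hint from the data. For WT replicate 2 the margin was small, at 0.08 against 0.06 with miR-181a/b-1-/- replicate 3. Deviations within a group of 3 sum to 0, so these correlations are not independent. Not every same-numbered pair was over 0.1, and the numbers were not treated as pairs. With the replicate block Gas5 was at 0.31 (adjusted p = 0.882, edgeR), and edgeR called 0 of all genes, with 40 lower and 48 higher at an unadjusted p under 0.05. The ratio of host to snoRNA counts was not run, since no host met its count rule.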

Other observations

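The genes whose level over the 6 libraries was most like that of Gas5 were the snoRNA gene Gm23344 (Pearson r of TMM-scaled log2 CPM 0.99, n = 6), the cyclin Ccnl1 (0.96) and Tnrc6a (0.94), a partner of Argonaute proteins. Of 1388 genes compared, 14 were over 0.9. For the sum of the 8 hosts they were Glud1 (0.95), Zbtb20 (0.95) and Kcnn4 (0.94). This sum was taken without the TMM factor while the other genes were scaled by it, so this ranking depends on the scaling. All values share library and depth, and they are given as a description.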
